A study of Homo sapiens with 12 samples.

Results

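The mitochondrial genome encodes 13 proteins of the respiratory chain, and the 6 of them that do not belong to complex I are described here across 4 treatments of a pancreatic cancer cell line. They are MT-CYB of complex III, MT-CO1, MT-CO2 and MT-CO3 of complex IV, and MT-ATP8 and MT-ATP6 of complex V. They were taken by their symbols from a table of 36601 genes, of which 13 lie on the mitochondrial chromosome, and all 6 had a mean normalized count of at least 10, the minimum for a gene to enter the tests. KP4, an established human line from a pancreatic ductal carcinoma with a genotype labelled WT, was grown in medium with serum and received for 24 h DMSO (the vehicle), metformin at 10 mM (Met), FK866 at 5 nM (FK) or both drugs at these doses (Met+FK). Metformin inhibits complex I, and FK866 inhibits NAMPT, an enzyme that makes NAD from nicotinamide. RNA depleted of ribosomal RNA was sequenced as read pairs with 3 numbered replicate libraries for each treatment. Nothing in the labels says that replicates came from separate cultures, so the p-values measure the spread between these libraries, which may be partly technical. One line at 1 time point stands for each treatment.

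Complex III passes electrons from coenzyme Q to cytochrome c, complex IV passes them from cytochrome c to oxygen, and complex V, the ATP synthase, makes ATP from the proton gradient that the chain builds up. Each of these complexes is assembled from mitochondrially encoded and nuclear encoded subunits. The mitochondrial genes are transcribed together as long precursor RNAs, most of which are cut where transfer RNA genes lie between the protein genes, and the levels of the single messenger RNAs then depend on how each is cut, stabilized and degraded as well as on transcription.

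All 6 genes lie on the same strand (+) of the mitochondrial chromosome in hg38 and have no introns. MT-CO1 takes up chrM:5904-7445, MT-CO2 chrM:7586-8269, MT-ATP8 chrM:8366-8572, MT-ATP6 chrM:8527-9207, MT-CO3 chrM:9207-9990 and MT-CYB chrM:14747-15887. Transfer RNA genes lie on both sides of MT-CO1, MT-CO2 and MT-CYB, whereas MT-ATP8, MT-ATP6 and MT-CO3 follow each other with no gene between them. The reference sequences of the 3 boundaries after MT-CO2 are shown because the result below changes at the first and the last of them. The first line holds the end of MT-CO2, with its stop codon in capitals, before the gene of the transfer RNA MT-TK (chrM:8249-8289). The second holds the 46 bases that belong to both MT-ATP8 and MT-ATP6, in capitals (chrM:8507-8592). The third holds the base shared by the last codon of MT-ATP6 and the first of MT-CO3, in capitals (chrM:9187-9227).
MT-CO2 end: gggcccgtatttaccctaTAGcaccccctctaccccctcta
MT-ATP8 with MT-ATP6: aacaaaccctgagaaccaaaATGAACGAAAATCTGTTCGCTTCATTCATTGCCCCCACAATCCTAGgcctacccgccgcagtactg
MT-ATP6 with MT-CO3: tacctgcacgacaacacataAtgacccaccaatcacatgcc

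MT-ATP8 and MT-ATP6 are translated from 1 messenger RNA in different reading frames, and the capitals of the second line begin with the start codon of MT-ATP6 and end with the stop codon of MT-ATP8. The read pairs of the 2 genes are therefore not independent measurements, and how the counting treated a pair that overlaps both genes is not given in the sources used here. Copies of mitochondrial sequence in the nuclear genome can also take or add read pairs, which makes the values of all 6 genes uncertain to that extent.

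The 6 genes were abundant RNAs of these libraries, though they were not ranked against all other genes. They took 2.23% ± 0.250 (SD, n = 3) of the counted read pairs in DMSO, 2.14% ± 0.285 in Met, 2.27% ± 0.260 in FK and 2.13% ± 0.0661 in Met+FK. The libraries of all 4 treatments overlapped, and the means differed by less than the SD of DMSO, Met or FK. The SD of Met+FK was smaller than some of these differences. Each gene was covered by at least 15881 read pairs in every library (the lowest value of MT-ATP8), and by up to 338895 (the highest of MT-CO1). Counting error is thus small beside the spread between replicates.

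Per kilobase of gene, the level in DMSO was highest for MT-CO3, with 231386 ± 17684 (SD, n = 3) normalized counts per kilobase, and MT-CO2, with 226965 ± 19533, whose libraries overlapped. MT-CO1 followed with 181394 ± 27283 and MT-ATP8 with 152195 ± 24521, and their libraries overlapped too. The order of these 2 depended on the length used, since MT-ATP8 had 195680 ± 31527 per kilobase when the 46 bases it shares with MT-ATP6 were left out of its length. MT-ATP6 had 108215 ± 16026 and MT-CYB 72499 ± 8761, and the libraries of these 2 genes did not overlap. In Met the level per kilobase was 87843 ± 14694 for MT-ATP8, 70314 ± 9613 for MT-CYB and 65277 ± 8714 for MT-ATP6, so that MT-ATP6 and MT-CYB overlapped there and MT-ATP8 no longer reached the lowest MT-CO1 library. The order of MT-CO3, MT-CO2 and MT-CO1 was as in DMSO. MT-ATP8 is short, with 207 bp, and its level per kilobase is less certain for that reason.

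With metformin alone, the RNAs of both complex V subunits fell, and none of the 4 RNAs of complexes III and IV passed the test. MT-ATP8, a small subunit of the membrane part of the synthase, had normalized counts of 35276, 25733 and 33504 in the 3 DMSO libraries and of 16598, 16262 and 21690 in the 3 Met libraries. All Met libraries lay below all DMSO libraries. On the log2(normalized count + 1) scale, on which all fold changes here are given, MT-ATP8 was lower in Met by a log2 fold change of -0.79 ± 0.13 (SE; limma, adjusted p = 0.000167), which means that it fell by 42.3%. MT-ATP6, subunit a, which forms the proton channel together with the ring of c subunits, had 82160, 61377 and 77547 in DMSO and 42631, 39645 and 51086 in Met. These groups did not overlap either. Its log2 fold change was -0.73 ± 0.12 (limma, adjusted p = 0.000188), and it fell by 39.6%. The 2 complex V genes were thus 2 of 6 called lower, where 25.9% of the 15376 genes tested were called lower in this comparison. In bulk RNA, fewer cells of a kind and less RNA per cell cannot be told apart.

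**Figure D1:**
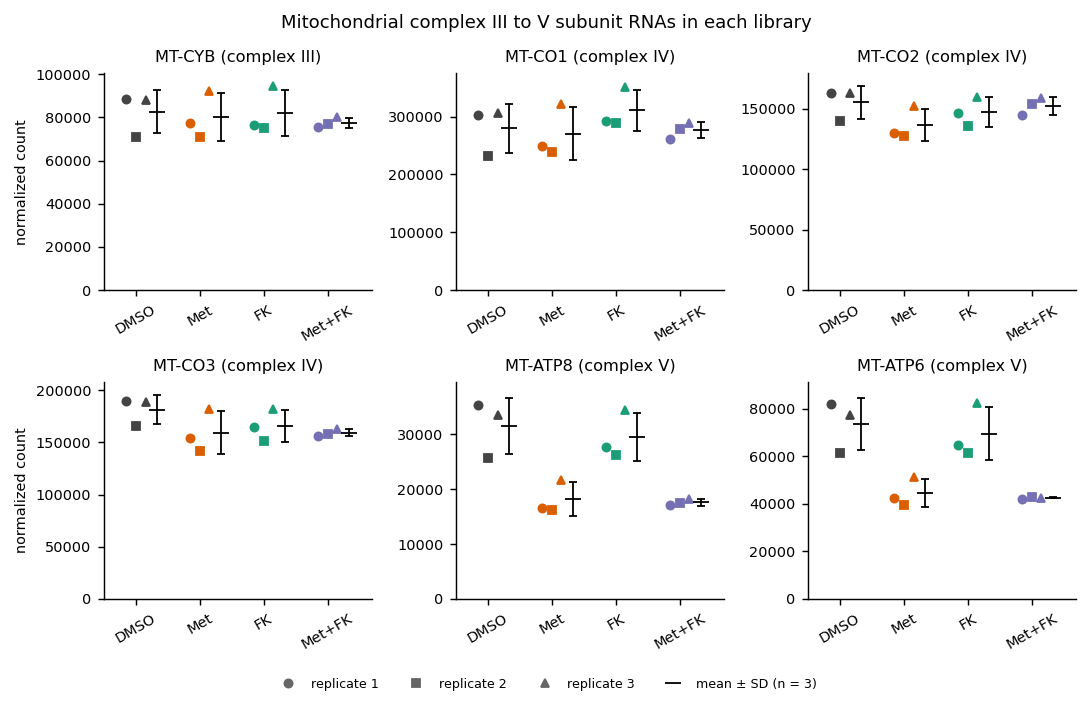
Normalized count (vertical axis, from 0) of each of the 6 genes in the 12 libraries (symbols, by replicate number) of the 4 treatments (horizontal axis), with the mean and SD of the 3 libraries as black bars. For MT-ATP8 and MT-ATP6 every library with metformin lies below every library without it, and for the other 4 genes the libraries with and without metformin overlap.

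The catalytic subunits of complex IV are MT-CO1, which holds the site where oxygen is reduced, and MT-CO2, which takes the electrons from cytochrome c. MT-CO1 had 302469, 231161 and 305496 normalized counts in DMSO and 248805, 238532 and 322366 in Met, a log2 fold change of -0.05 ± 0.12 with a 95% confidence interval of -0.31 to 0.21 (limma, adjusted p = 0.737). MT-CO2 had 162713, 139819 and 163201 in DMSO and 130249, 127885 and 152031 in Met, a log2 fold change of -0.18 ± 0.09 with an interval of -0.37 to -0.00187 (limma, adjusted p = 0.0844). The groups overlapped for both genes. MT-CO3, the third core subunit of complex IV, had 190241, 165427 and 188552 in DMSO and 154360, 141669 and 182514 in Met, which also overlapped. Its log2 fold change was -0.19 ± 0.09 with an interval of -0.39 to 0.00375 (limma, adjusted p = 0.0933). MT-CYB, cytochrome b, the only mitochondrially encoded subunit of complex III, had 88756, 71184 and 88226 in DMSO and 77320, 71007 and 92358 in Met, with a log2 fold change of -0.05 ± 0.11 and an interval of -0.28 to 0.19 (limma, adjusted p = 0.750). For MT-CO2 and MT-CO3 the call depended on 1 library. DMSO replicate 2 was the lowest DMSO library and Met replicate 3 the highest Met library for all 6 genes. Without either of them 4 of 6 genes were called lower, since MT-CO2 (adjusted p = 0.0244 without the DMSO library and 0.0208 without the Met library) and MT-CO3 (0.0399 and 0.0117) then passed. The share of all genes called lower without these libraries is not given here. The 25.9% above belongs to the fit with all libraries.

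The effect of metformin on top of FK866 rests on the other 6 libraries and gave the same 2 calls. MT-ATP8 had 27768, 26164 and 34462 normalized counts in FK and 17040, 17431 and 18241 in Met+FK, and MT-ATP6 had 64870, 61376 and 82304 in FK and 42225, 42718 and 42577 in Met+FK. All Met+FK libraries lay below all FK libraries for both genes, and those of MT-ATP6 differed from each other by little. The log2 fold changes were -0.74 ± 0.13 for MT-ATP8 (limma, adjusted p = 0.000372) and -0.70 ± 0.12 for MT-ATP6 (adjusted p = 0.000314), so MT-ATP8 fell by 39.96% and MT-ATP6 fell by 38.3%. In this comparison 21.7% of all genes tested were called lower. The 4 RNAs of complexes III and IV did not pass, with log2 fold changes of -0.16 ± 0.12 for MT-CO1, 0.05 ± 0.09 for MT-CO2, -0.06 ± 0.09 for MT-CO3 and -0.07 ± 0.11 for MT-CYB (limma, adjusted p between 0.304 and 0.659). MT-CO2 had 146754, 135457 and 160139 in FK and 144566, 153947 and 159321 in Met+FK, which overlapped.

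The remaining comparisons with metformin on 1 side share libraries with those above. Against DMSO, the 2 drugs together gave log2 fold changes of -0.83 ± 0.13 for MT-ATP8 and -0.78 ± 0.12 for MT-ATP6, which were the only 2 of the 6 genes called, where 26.1% of all genes were called lower. Met against FK gave -0.70 ± 0.13 and -0.64 ± 0.12, again the only 2 called, beside 19.5% of all genes. In the main fit of all 4 comparisons MT-ATP8 and MT-ATP6 also exceeded a fold change of 1.5, the threshold the study set in addition to the adjusted p. On the log2 scale this threshold is 0.585. Some of the alternatives given at the end fell short of it. The smallest log2 decreases among them were -0.563 (MT-ATP8) and -0.570 (MT-ATP6) in Met+FK against FK. In Met against FK they were -0.581 and -0.514. MT-CO3 in Met+FK against DMSO (log2 fold change -0.18 ± 0.09, adjusted p = 0.103) and MT-CO1 in Met against FK (-0.21 ± 0.12, adjusted p = 0.194) were called only without 1 library, DMSO replicate 2 (adjusted p = 0.0440) and Met replicate 3 (adjusted p = 0.0324) respectively, or under settings given at the end.

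FK866 alone moved none of the 6 RNAs past the test. MT-ATP8 had 29465 ± 4402 (SD, n = 3) normalized counts in FK and 31505 ± 5076 in DMSO, and MT-ATP6 had 69517 ± 11211 and 73695 ± 10914. The log2 fold changes of the 6 genes lay between -0.13 (MT-CO3, 95% confidence interval -0.32 to 0.07) and 0.16 (MT-CO1, -0.10 to 0.41). Of the 6 genes 0 passed in limma, 0 at an unadjusted p under 0.05, and 0 in edgeR and DESeq2 on recovered read pairs, where limma called 21.1% of all genes in either direction. Of all 15376 genes tested, 6488 had an unadjusted p under 0.05 in limma. Adding FK866 to metformin gave log2 fold changes between -0.06 (MT-ATP6, interval -0.31 to 0.20) and 0.16 (MT-CO2, -0.02 to 0.34), with 0 calls by the same 4 counts beside 0.0976% of all genes in limma. At an unadjusted p under 0.05 limma had 1051 of the 15376 genes there. The interaction, which subtracts the effect of FK866 given alone from its effect in the presence of metformin, lay between -0.11 ± 0.17 for MT-CO1 and 0.24 ± 0.12 for MT-CO2. It also gave 0 calls by all 4 counts, beside 0.0585% of all genes in limma, and 30.5% at an unadjusted p under 0.05. The interaction of the complex V genes was 0.06 ± 0.18 for MT-ATP8 (interval -0.34 to 0.45) and 0.03 ± 0.17 for MT-ATP6 (-0.34 to 0.39), so a difference of these sizes in the response to metformin was not detectable with 3 libraries per treatment.

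**Figure D2:**
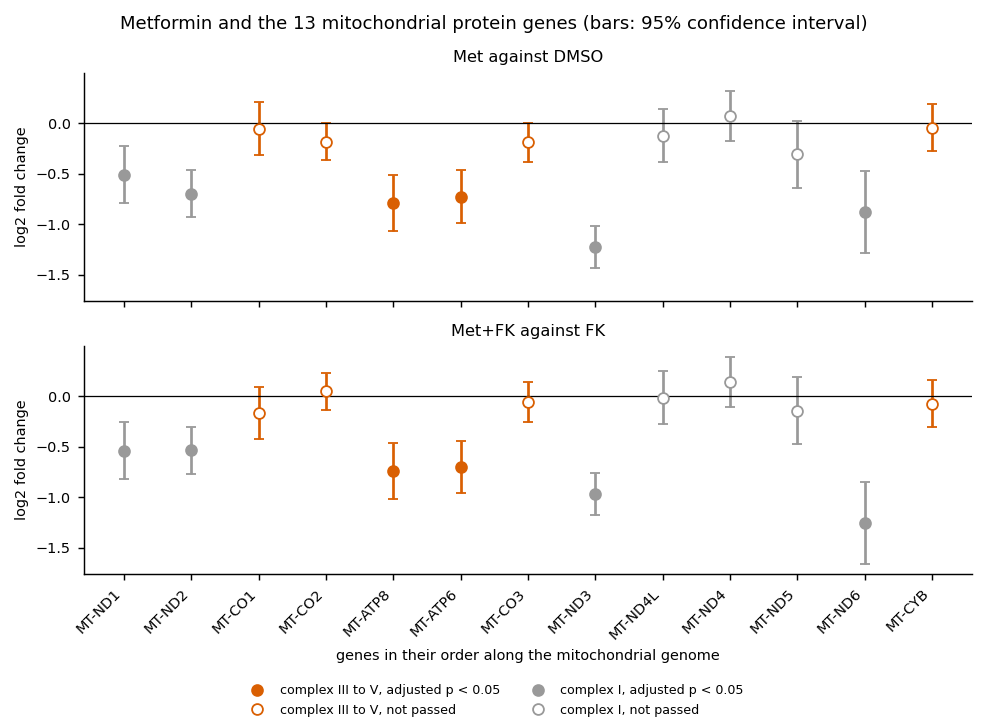
Log2 fold change (vertical axis) with its 95% confidence interval for the 13 mitochondrial protein genes in their order along the genome (horizontal axis), for Met against DMSO (top) and Met+FK against FK (bottom). Orange marks the 6 genes of complexes III to V, grey the 7 of complex I, and filled circles an adjusted p under 0.05. MT-ATP8 and MT-ATP6 lie between -0.70 and -0.79 in both panels, while their neighbours MT-CO2 and MT-CO3 lie between -0.19 and 0.05.

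The 7 mitochondrially encoded subunits of complex I were unequal as well. In Met against DMSO 4 of 7 were called lower, beside 25.9% of all genes, with log2 fold changes of -1.23 ± 0.10 for MT-ND3, -0.88 ± 0.19 for MT-ND6, -0.70 ± 0.11 for MT-ND2 and -0.51 ± 0.13 for MT-ND1, and MT-ND4 had 0.07 ± 0.12. MT-ND3, which lies just beyond MT-CO3 and a transfer RNA gene, fell by 57.3%. Across the 13 genes the log2 fold changes of the 2 metformin comparisons without common libraries, Met against DMSO and Met+FK against FK, had a Pearson's r of 0.925 and a Spearman's rho of 0.879. This is a description across genes that share libraries and precursor RNAs. The log2 fold change in Met against DMSO had a Pearson's r of 0.132 with the order of the genes along the genome, 0.540 with log2 length and 0.680 with GC content over the same 13 genes. MT-ATP8 had the lowest GC content of the 6 genes, 39.6%, and MT-CO3 the highest, 46.6%. When each library's values were corrected for their dependence on GC content and transcript length, the log2 fold changes in Met against DMSO were -0.78 for MT-ATP8 and -0.73 for MT-ATP6, and in Met+FK against FK -0.56 and -0.63. That dependence was fitted on nuclear genes, so the correction cannot remove one particular to mitochondrial RNAs, which was not tested.

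Since ratios within a library do not depend on how libraries are scaled, the 6 genes were also compared with each other, as the 5 ratios of each gene to the one before it along the genome. These ratios were chosen after the data had been seen. Metformin was tested by an exact permutation test (two-sided) that exchanged libraries with and without metformin within the libraries with FK866 and within those without. It has 400 arrangements, and 0.005 is the smallest p it can give. MT-ATP8 per MT-CO2 was 0.217, 0.184 and 0.205 in DMSO and 0.127, 0.127 and 0.143 in Met. It was 0.189, 0.193 and 0.215 in FK and 0.118, 0.113 and 0.114 in Met+FK. All 6 libraries with metformin lay below all 6 without, with a mean log2 difference of -0.70 (exact permutation p = 0.005, adjusted over the 5 ratios 0.0125). At the other end of the pair, MT-CO3 per MT-ATP6 was 2.32, 2.695 and 2.43 in DMSO and 3.62, 3.57 and 3.57 in Met. It was 2.54, 2.46 and 2.21 in FK and 3.704, 3.707 and 3.835 in Met+FK. All 6 libraries with metformin lay above all 6 without, with a mean log2 difference of 0.59 (exact permutation p = 0.005, adjusted 0.0125). When each of the 12 libraries was left out in turn, the mean log2 difference lay between -0.73 and -0.67 for MT-ATP8 per MT-CO2 and between 0.56 and 0.62 for MT-CO3 per MT-ATP6.

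Within the pair, and outside it, the ratios moved less. MT-ATP6 per MT-ATP8 was 2.34 ± 0.0373 (SD, n = 3) in DMSO, 2.45 ± 0.107 in Met, 2.36 ± 0.0277 in FK and 2.42 ± 0.0764 in Met+FK, a mean log2 difference of 0.05 (exact permutation p = 0.055, adjusted 0.0917). MT-CO2 per MT-CO1 was 0.559 ± 0.0398 in DMSO and 0.510 ± 0.0342 in Met, and 0.476 ± 0.0226 in FK and 0.552 ± 0.00123 in Met+FK, so that metformin went with a lower mean in one pair of treatments and a higher mean in the other. Its mean log2 difference was 0.04 (exact permutation p = 0.53, adjusted 0.53). MT-CYB per MT-CO3 was 0.455 ± 0.0213 in DMSO, 0.503 ± 0.00287 in Met, 0.493 ± 0.0283 in FK and 0.486 ± 0.00345 in Met+FK, with a mean log2 difference of 0.06 (exact permutation p = 0.17, adjusted 0.2125). Tested in the same way, FK866 passed for none of the 5 ratios (exact permutation p between 0.085 and 0.845).

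**Figure D3:**
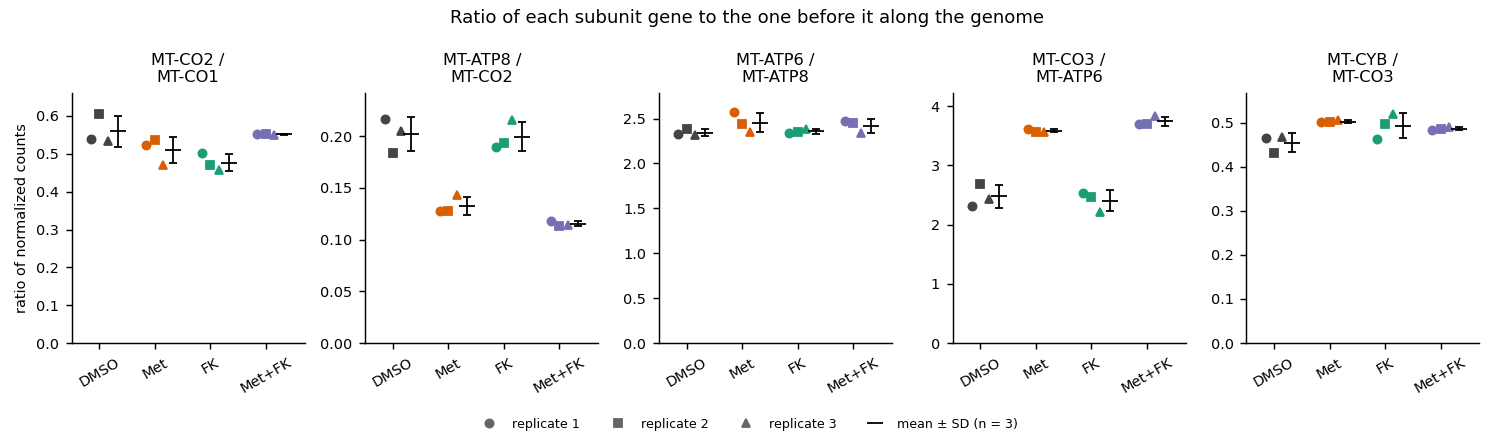
Ratio of the normalized counts of each gene to the gene before it among the 6, along the genome (vertical axes, from 0), in the 12 libraries (symbols) of the 4 treatments (horizontal axes), with mean and SD as black bars. MT-ATP8 per MT-CO2 is lower and MT-CO3 per MT-ATP6 higher in all 6 libraries with metformin than in all 6 without.

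As a share of the read pairs on the 13 mitochondrial protein genes, MT-ATP6 made up 5.35% ± 0.132 (SD, n = 3) in DMSO, 3.75% ± 0.0462 in Met, 4.99% ± 0.178 in FK and 3.39% ± 0.0925 in Met+FK. MT-ATP8 made up 2.29% ± 0.0793, 1.53% ± 0.0477, 2.12% ± 0.0549 and 1.40% ± 0.0257 in the same order. For both genes the shares with metformin lay below those without it in each pair of treatments. The shares with FK866 also lay below those without it, by less and without overlap. That of MT-ATP6 was 5.26% to 5.50% in DMSO and 4.84% to 5.19% in FK, and 3.701% to 3.79% in Met and 3.32% to 3.49% in Met+FK. That of MT-ATP8 was 2.21% to 2.36% in DMSO and 2.06% to 2.17% in FK, and 1.48% to 1.57% in Met and 1.37% to 1.42% in Met+FK. Such a separation by FK866 was not particular to these 2 genes. In both pairs of treatments MT-CO3, MT-ND2 and MT-ND3 also had lower shares with FK866 without overlap, and MT-ND4 had higher ones. MT-CO1 had higher shares in FK than in DMSO without overlap. Only in Met+FK against Met, MT-CYB, MT-ND1 and MT-ND6 were lower and MT-ND5 was higher without overlap. None of these differences in share was tested. The share of MT-CYB was 6.03% ± 0.0765 in DMSO and 6.76% ± 0.106 in Met, and 5.91% ± 0.0700 in FK and 6.18% ± 0.112 in Met+FK, and these pairs did not overlap. MT-CO1 had the largest share, 20.3% ± 0.537 in DMSO and 22.7% ± 0.622 in Met without overlap, but 22.4% ± 0.302 in FK and 22.0% ± 0.457 in Met+FK with overlap. Shares add up to a whole, so a lower share of some genes goes with a higher share of others.

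Within treatments the 6 RNAs went up and down together between replicates. The deviations of their log2 values from the treatment means, over the 12 libraries, had a Pearson's r between 0.922 and 0.980 in the 15 pairs of genes (median 0.956), as a description of genes that share libraries. FK replicate 3 was the highest FK library for all 6 genes. Of the 11508 genes outside the mitochondrial genome with a mean normalized count of at least 100, those whose values over the 12 libraries were most like the mean of the 6 genes were SMAD3, a transcription factor of TGF-beta signalling (r = 0.977), SEC16A, which organizes the sites where vesicles leave the endoplasmic reticulum (0.957), NLGN2, a cell adhesion protein (0.956), NUP214, a nuclear pore protein (0.955), and POLR2A, the largest subunit of RNA polymerase II (0.952). Over the 4 treatment means, a comparison with few points, the most alike were LMCD1, KIF20A, OGFRP1, WBP11 and TENT4A.

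Most nuclear encoded subunits of the same complexes fell with metformin alone. Of 41 listed subunits 37 were tested, and in Met against DMSO 27 of them (73.0%) were called lower and 0 higher, with a median log2 fold change of -0.31, where 25.9% of all genes were called lower and 24.9% higher and the median over all genes was 0.01. At an unadjusted p under 0.05, 1 of them was higher, and by edgeR 22 were called lower and 1 higher, by DESeq2 25 and 0. The shares above are those of limma, and those of all genes in edgeR and DESeq2 are not given here. For complex V 14 of 17 were lower. The largest decreases there were those of ATP5MC3, with 8111 ± 368 (SD, n = 3) normalized counts in DMSO and 4232 ± 174 in Met (log2 fold change -0.94 ± 0.09, limma, adjusted p = 1.05e-06), and of ATP5MC1, with 2975 ± 195 and 1738 ± 22.4 (-0.77 ± 0.11, adjusted p = 4.13e-05). Both encode the c subunit of the ring that turns against MT-ATP6. The third gene for the same protein, ATP5MC2, had the log2 fold change -0.21 ± 0.07, and ATP5F1B, the catalytic beta subunit, -0.20 ± 0.07, and these were the smallest decreases that passed.

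For complex III 7 of 9 nuclear subunits were called lower, most of all UQCRFS1, the Rieske iron-sulfur protein (-0.47 ± 0.08), and CYC1, cytochrome c1 (-0.43 ± 0.10), and least UQCRH and UQCR11 (both -0.21 ± 0.08). MT-CYB, their mitochondrial partner, had -0.05 ± 0.11. For complex IV 6 of 11 tested were lower, led by COX6B1 (-0.54 ± 0.08) and COX7B (-0.50 ± 0.07), with COX5A at -0.31 ± 0.08 and NDUFA4 at -0.19 ± 0.07. When libraries were scaled to the same total, the median of all genes moved by more than 0.1, from 0.01 to 0.13, and 4 of 9, 5 of 11 and 10 of 17 nuclear subunits of complexes III, IV and V were then called lower and 0, 1 and 0 higher. With that scaling 5241 genes were called higher and 2926 lower, instead of 3834 and 3989.

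In Met+FK against FK, 14 of 37 nuclear subunits (37.8%) were called lower and 0 higher (0 also at an unadjusted p under 0.05), beside 21.7% and 20.5% of all genes, with a median log2 fold change of -0.14. The count was 10 lower and 3 higher when libraries were scaled to the same total, and 11 lower and 1 higher after the GC and length correction. With libraries scaled to the same total, 2732 of all 15376 genes were called lower and 3833 higher. The counts over all genes after the correction are not given here for this comparison. Of the 14 called lower without these changes, 9 belong to complex V, where ATP5MC3 had -0.80 ± 0.09 (limma, adjusted p = 5.21e-06) and ATP5MC1 -0.47 ± 0.11. FK866 alone lowered 8 of 37, beside 9.84% of all genes. ATP5MC1 was among them, with 2975 ± 195 normalized counts in DMSO and a log2 fold change of -0.38 ± 0.11 (adjusted p = 0.0304). Whether the nuclear subunits responded differently to metformin with and without FK866 was tested gene by gene through the interaction, which 0 of 37 passed in limma, edgeR or DESeq2. After the GC and length correction 1 of 37 passed, and the share of all genes that passed then is not given here. At an unadjusted p under 0.05 there were 12 of 37 in each of the 3 tests, all of them positive. Of all genes 30.5% reached this p in limma, 15.8% with a positive interaction. Whether the listed genes differ from all genes in this was not tested. With libraries scaled to the same total there were 8.

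**Figure D4:**
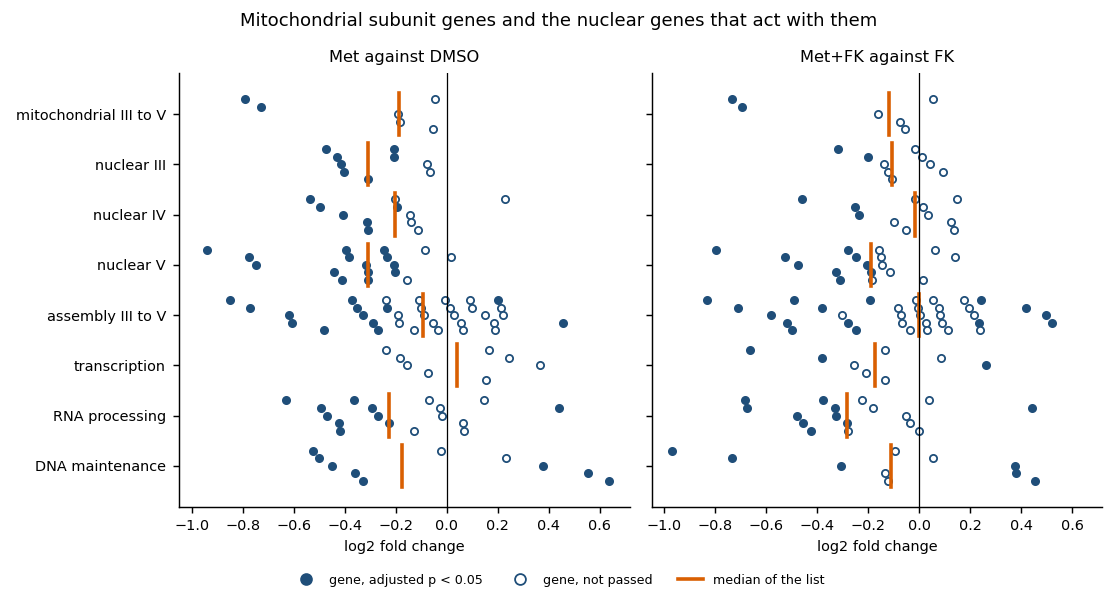
Log2 fold change (horizontal axis) of each tested gene (circles, filled where the adjusted p was under 0.05) in 8 lists (vertical axis), for Met against DMSO (left) and Met+FK against FK (right), with the median of each list as an orange bar. Among the 6 mitochondrial genes of complexes III to V, MT-ATP8 and MT-ATP6 lie to the left of the other 4, while the nuclear subunits spread around medians of -0.31 (complex III), -0.20 (complex IV) and -0.31 (complex V) in the left panel.

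The RNAs for the proteins that transcribe the mitochondrial genome did not pass in Met against DMSO. Of 8 listed genes 0 were called by limma, edgeR or DESeq2 (1 at an unadjusted p under 0.05 in limma), where limma called 25.9% of all genes lower and 24.9% higher and 57.2% had an unadjusted p under 0.05. However, 3 were called lower after the GC and length correction, where 5004 of 15324 genes were. The log2 fold changes were -0.18 ± 0.10 for POLRMT, the RNA polymerase, -0.07 ± 0.15 for TFAM, which packages the DNA and helps to start transcription, -0.24 ± 0.11 for TFB2M, which opens the promoter, and 0.17 ± 0.15 for TEFM, the elongation factor. In Met+FK against FK, 2 of the 8 were called lower and 1 higher, near the 21.7% and 20.5% of all genes. TFAM (-0.67 ± 0.15, adjusted p = 0.00293) and TFB2M (-0.38 ± 0.11, adjusted p = 0.0109) fell there and POLRMT rose (0.26 ± 0.10, adjusted p = 0.0465). The genes that copy the mitochondrial DNA were mixed in Met against DMSO, 5 of 10 lower and 3 higher, the latter near the share of all genes. POLG, the polymerase, fell (-0.45 ± 0.09), as did the helicase TWNK (-0.36 ± 0.07), MGME1, a nuclease (-0.52 ± 0.10) and DNA2 (-0.50 ± 0.10), whereas POLG2, the second subunit of the polymerase, rose (0.55 ± 0.10), as did RRM2B, which supplies nucleotides (0.64 ± 0.21).

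Of 17 genes that cut, stabilize or degrade mitochondrial RNA, 9 were called lower and 1 higher in Met against DMSO, beside 25.9% and 24.9% of all genes, with a median of -0.23. The count there was 6 lower and 2 higher with libraries scaled to the same total and 15 lower and 1 higher after the GC and length correction. Of all genes, 2926 of 15376 were called lower and 5241 higher with that scaling. After the correction 5004 of 15324 were lower and 3844 higher. In Met+FK against FK again 9 were lower and 1 higher, beside 21.7% and 20.5% of all genes, with a median of -0.28. FASTKD5 is needed to cut precursor RNAs at boundaries that have no transfer RNA, such as that between MT-ATP6 and MT-CO3. It had 858 ± 39.1 (SD, n = 3) normalized counts in DMSO and 610 ± 48.2 in Met, a log2 fold change of -0.49 ± 0.08 (limma, adjusted p = 0.000191), and -0.48 ± 0.08 in Met+FK against FK (adjusted p = 0.000289). ELAC2, which cuts at the 3′ end of transfer RNAs, fell from 9404 ± 319 to 6090 ± 379 (-0.63 ± 0.08, adjusted p = 1.35e-05), and by 0.38 on the log2 scale on top of FK866 (adjusted p = 0.00119). LRPPRC and SLIRP together stabilize mitochondrial messenger RNAs, and in Met against DMSO LRPPRC rose (0.44 ± 0.13, adjusted p = 0.0115) while SLIRP fell (-0.36 ± 0.10, adjusted p = 0.00605). In Met+FK against FK SLIRP fell too (-0.33 ± 0.10, adjusted p = 0.0139) and LRPPRC had -0.05 ± 0.13 (adjusted p = 0.770), and with FK866 alone LRPPRC rose (0.48 ± 0.13, adjusted p = 0.0292). GRSF1, an RNA-binding protein of the mitochondrial RNA granules, had -0.23 ± 0.07. The part of any of these genes in the change of MT-ATP8 and MT-ATP6 was not tested.

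Of 34 assembly factors of the 3 complexes, 11 (32.4%) were called lower and 2 higher in Met against DMSO, beside 25.9% and 24.9% of all genes, but 7 lower and 10 higher with libraries scaled to the same total. With that scaling 2926 of all 15376 genes were called lower and 5241 higher. The decreases were led by PET100 (-0.85 ± 0.09) and COA3 (-0.77 ± 0.10), both needed for complex IV, with SMIM20 (0.46 ± 0.11) and TTC19 (0.20 ± 0.08) higher. Of 9 genes for other mitochondrial proteins, taken as a view of the compartment as a whole, 8 were called lower, beside the same 25.9%, from TOMM40, the import channel (-0.94 ± 0.09), and PHB (-0.64 ± 0.08) to VDAC2 (-0.33 ± 0.07) and PHB2 (-0.27 ± 0.09). Among 7 regulators of nuclear genes for the respiratory chain, 6 were tested and 3 fell, beside 25.9% of all genes, PPRC1 (-0.65 ± 0.11), NRF1 (-0.64 ± 0.10) and ESRRA (-0.34 ± 0.08).

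The libraries held between 30667735 and 41052203 read pairs. Of 8 ductal or epithelial markers 1, EPCAM, had a mean under 10, while KRT18, KRT8 and SOX9 were present and VIM, a mesenchymal marker, was high. The 9 markers of acinar, endocrine, leukocyte and endothelial cells summed to between 212 and 309 normalized counts in DMSO and between 146 and 190 in Met, 8 of them had a mean under 10 and 3 were at 0 throughout. The ninth was PTPRC. The sum of the ductal markers was 25327 to 26266 in DMSO and 16512 to 19694 in Met. KRT18 made up most of it, with a mean of 18307 in DMSO and 10421 in Met. Of the 7 ductal markers tested, 3 were called lower and 2 higher in Met against DMSO, beside 25.9% and 24.9% of all genes. KRT8 was lower (log2 fold change -0.29 ± 0.10) and SOX9 higher (0.24 ± 0.09). RNAs kept in the nucleus moved with the treatment. The sum of MALAT1, NEAT1 and KCNQ1OT1 was 34971 to 40230 in DMSO, 128810 to 134634 in Met, 62590 to 96909 in FK and 121918 to 151663 in Met+FK. The dependence of a library's values on GC content ranged from 0.043 to 0.197 log2 units per 10 percentage points in DMSO and from -0.139 to 0.0801 in Met. The part of these shifts in the results was not tested, other than by the GC correction given above.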

How the data were processed

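Per the study's methods, the authors used cutadapt (3.7) for trimming and RNA STAR (2.7.8) for alignment to hg38, counted read pairs with both ends mapped per gene with featureCounts (2.0.1) and normalized with DESeq2. The annotation and strand setting are not given in the sources used here. They deposited a signal that is never negative, namely each library's gene counts over its DESeq2 size factor (0.867 to 1.21). Read pairs were recovered from the smallest step of each library, and 100% of values came out whole within 0.01. No pair of replicates agreed within sampling noise (the lowest chi-square per degree of freedom was 5.75). Positions are those of the deposited table, with 1 added to each start, and equal those of GENCODE 44 for all 13 mitochondrial protein genes. The sequences are from the hg38 genome.

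The test was limma-trend (limma 3.58.1, R 4.3.3) on log2(normalized count + 1), 1 mean per treatment and all 12 libraries, for the 15376 genes whose mean reached 10, Benjamini-Hochberg adjusted over all of them in each comparison. A gene was called at an adjusted p under 0.05. The test was checked on simulated counts. The alternatives were pseudocounts of 0.1 and 10, other filters, 3 scalings, only the libraries compared, a replicate block, a loess trend (span 0.3) on GC content and transcript length (known for 99.7% of genes) with and without the block, edgeR (4.0.16), DESeq2 (1.42.0), and each library left out. The members and gene lists were chosen with earlier results of these data known. A gene of the ductal marker list is not reported here. Named from each nuclear list were the 2 largest and 2 smallest log2 fold changes in Met against DMSO among called genes with a mean of at least 100, and always POLRMT, TFAM, TFB2M, TEFM, LRPPRC, SLIRP, POLG and TWNK. By deviations from treatment means across genes, same-numbered libraries correlated at 0.22 to 0.42 for DMSO and FK and at 0.17 to 0.23 for Met and Met+FK. The range was 0.0233 to 0.403 for Met and FK, 0.0461 to 0.235 for FK and Met+FK, and 0.0186 to 0.159 for DMSO and Met+FK. No correlation was computed between libraries of different numbers, so these values have no reference and do not show whether libraries are paired. The labels do not state it either. The block changed no call among the 6 genes in FK against DMSO or Met+FK against Met.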

Additional observations from a re-analysis of the deposited data

How the results depend on the processing

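MT-ATP8 and MT-ATP6 were called lower in Met against DMSO, Met+FK against FK, Met+FK against DMSO and Met against FK under every alternative run. Of 828 recomputed log2 fold changes of the 6 genes, 814 kept their side of the threshold, 14 passed it in addition, and 0 reversed a call, while 80 that passed in neither fit changed sign. In Met against DMSO the number of genes called was 4 instead of 2 with the replicate block and 4 with the block after removal of the GC and length trend, through MT-CO2 (adjusted p = 0.0190 and 0.0338) and MT-CO3 (0.0182 and 0.0229), and 2 to 4 when each library was left out. The shares of all genes called in these fits are not given here, so the higher counts have no background beside them. Same-numbered libraries of DMSO and Met correlated at 0.0129, 0.328 and 0.248, and this check does not settle whether they are paired. With the replicate block MT-CO3 was also called in Met+FK against DMSO (adjusted p = 0.0212) and MT-CO1 in Met against FK (0.0478, and 0.0289 after the GC correction). With only the libraries compared, MT-CO3 passed in Met+FK against DMSO (0.0418). The ratio of MT-ATP6 to MT-ATP8 had an exact permutation p between 0.015 and 0.105 when 1 library was left out, and that of MT-CYB to MT-CO3 between 0.04 and 0.385. Weighted per kilobase, the shares of the 6 genes among the 13 differed from those by read pairs, and the change of MT-CO1 in Met+FK against FK was -0.345 percentage points by read pairs and 0.409 per kilobase. With 3 libraries per treatment, the intervals given for the uncalled genes limit what could be seen.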
